A study of Mus musculus with 12 samples.

Results

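The mRNA of 8 genes of the NFAT and calcineurin pathway was followed in mouse cytotoxic T lymphocytes (CTL): the transcription factors Nfatc1, Nfatc2, Nfatc3 and Nfat5, the calcineurin catalytic subunits Ppp3ca, Ppp3cb and Ppp3cc, and Rcan1, which encodes a protein that binds calcineurin and modulates its activity. They were taken by exact gene symbol from a table of FPKM (fragments per kilobase of exon, scaled to library size), and all 8 listed genes were among its 11022 genes. The CTL came from female LCMV-P14 TCR transgenic mice, whose CD8 T cells recognise the gp33-41 peptide of the virus LCMV. They had been activated, expanded in IL-2 (20 ng/mL) and used on day 7. There were 4 groups of 3 cultures. Unstimulated CTL received no peptide. TCR CTL received peptide (100 ng/mL) for 4 h. TCR + PI3Kdi CTL received peptide with IC87114 (10 µM), an inhibitor of the PI3K p110δ catalytic subunit, and TCR + MEKi CTL received peptide with PD184252 (2 µM), an inhibitor of MEK. All groups shared the transgenic receptor and IL-2, so no group was naïve or free of cytokine. The 3 biological replicates came from 3 mice.

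NFAT proteins rest in the cytoplasm in a phosphorylated form. When the T cell receptor raises intracellular calcium, the calcium signal activates calcineurin, a phosphatase of 1 catalytic and 1 regulatory subunit, which dephosphorylates NFATc1, NFATc2 and NFATc3 and lets them enter the nucleus, where they bind DNA often beside AP-1. NFAT5 shares the DNA binding domain of the family but lacks the calcineurin docking region and is best known as the regulator of the response to osmotic stress. Since this pathway is switched by phosphorylation and location, mRNA levels measure how much of each component is transcribed or kept, not its activity.

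The genes lie on 6 chromosomes of the mouse assembly GRCm38 (mm10). Nfatc1 spans chr18:80606205-80713071 on the minus strand, Nfatc2 chr2:168476410-168601657 on the minus strand, Nfatc3 chr8:106058840-106130537 on the plus strand and Nfat5 chr8:107293470-107379517 on the plus strand. Ppp3ca spans chr3:136670124-136937727 on the plus strand, Ppp3cb chr14:20499364-20546573 on the minus strand, Ppp3cc chr14:70217865-70289471 on the minus strand and Rcan1 chr16:92391953-92470867 on the minus strand. Exons of Nfatc3 share 219 bases (1.87%) with Esrp2 and those of Ppp3cc share 91 bases (3.05%) with Gm49417, each on the opposite strand, so reads there could be split if strand was ignored in counting. No 100-base stretch of a member's transcripts occurred in those of another gene, except 1.02% of the Nfatc3 stretches, found in Esrp2. The paralogs could therefore be told apart at the read length used.

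The labelled cell type was checked against its markers. Cd8a was at 213 to 430 FPKM, Cd8b1 at 230 to 366, Cd3e at 106 to 132 and Gzmb at 8279 to 13582 across the 12 cultures. Of 15 markers of CD4 T, B, myeloid, NK and erythroid cells, 2 were in the table. Cd4 was at 0.44 to 0.99 FPKM in unstimulated, 2.54 to 2.87 in TCR, 1.96 to 3.65 in TCR + PI3Kdi and 0.28 to 0.66 in TCR + MEKi cultures, and the NK cell gene Klrb1c at 4.58 to 6.23, 1.63 to 1.88, 2.03 to 2.43 and 1.31 to 1.93. These moved with the groups, and their part in the results was not tested. From the spacing of low values the depth was estimated at 7870000 to 13200000 reads a culture. At that depth the members other than Rcan1 rested on about 600 to 6420 reads in each culture and Rcan1 on about 110 to 180, for which counting alone gives a coefficient of variation of up to 9.6%. The mRNA came from whole cultures, so fewer cells with a transcript and less transcript per cell cannot be told apart.

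Promoter windows of 300 bases, from 250 bases before to 50 after a start site, are shown for Nfat5 and Nfatc2, the members with the largest rise and fall after TCR triggering, and for Rcan1, with both listed starts of Nfatc2 and of Rcan1 (RefSeq, GRCm38.p6, 5′ to 3′ on the gene's strand). Capitals mark each GGAAA, the core of the NFAT site, on either strand (TTTCC on the other), and each TGANTCA, the AP-1 motif, whose reverse complement has the same letters.
Nfat5, chr8:107293220-107293519, plus strand: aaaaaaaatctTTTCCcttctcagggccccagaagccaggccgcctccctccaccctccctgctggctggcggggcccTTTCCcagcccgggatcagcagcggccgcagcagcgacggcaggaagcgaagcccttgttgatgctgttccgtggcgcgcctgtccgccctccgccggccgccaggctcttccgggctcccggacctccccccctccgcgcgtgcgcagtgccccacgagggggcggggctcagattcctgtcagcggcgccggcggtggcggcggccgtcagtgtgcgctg
Nfatc2, upstream start, chr2:168601608-168601907, minus strand: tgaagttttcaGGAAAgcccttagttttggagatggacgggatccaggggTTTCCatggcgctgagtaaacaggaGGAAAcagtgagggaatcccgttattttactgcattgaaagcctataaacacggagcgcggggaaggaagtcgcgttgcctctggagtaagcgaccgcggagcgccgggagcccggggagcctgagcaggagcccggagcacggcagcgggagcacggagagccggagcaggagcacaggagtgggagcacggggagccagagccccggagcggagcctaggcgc
Nfatc2, downstream start, chr2:168590316-168590615, minus strand: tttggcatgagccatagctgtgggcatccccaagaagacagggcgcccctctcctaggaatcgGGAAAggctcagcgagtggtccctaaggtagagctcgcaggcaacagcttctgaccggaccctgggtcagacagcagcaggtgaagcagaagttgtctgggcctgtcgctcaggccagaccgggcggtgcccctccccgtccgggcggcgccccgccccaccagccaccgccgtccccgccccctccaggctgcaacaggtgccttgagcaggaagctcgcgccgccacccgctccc
Rcan1, upstream start, chr16:92466120-92466419, minus strand: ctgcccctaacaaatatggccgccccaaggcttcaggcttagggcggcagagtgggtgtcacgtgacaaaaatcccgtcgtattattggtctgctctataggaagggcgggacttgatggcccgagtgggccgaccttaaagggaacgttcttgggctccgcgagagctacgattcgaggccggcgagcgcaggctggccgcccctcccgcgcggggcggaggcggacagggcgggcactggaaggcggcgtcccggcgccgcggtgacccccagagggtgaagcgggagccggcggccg
Rcan1, downstream start, chr16:92400029-92400328, minus strand: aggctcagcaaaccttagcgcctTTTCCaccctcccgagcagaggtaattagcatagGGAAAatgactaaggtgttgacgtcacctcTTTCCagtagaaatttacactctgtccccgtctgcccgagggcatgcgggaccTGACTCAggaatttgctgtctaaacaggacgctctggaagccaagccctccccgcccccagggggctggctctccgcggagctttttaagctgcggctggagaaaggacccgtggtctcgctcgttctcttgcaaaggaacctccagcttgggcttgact
The Nfat5 window held 2 GGAAA matches, the upstream Nfatc2 window 3 and the downstream Nfatc2 window 1, with no AP-1 match in these. The upstream Rcan1 window held neither motif, and the downstream window held 3 GGAAA matches and 1 AP-1 match (TGACTCA). Over all 32851 promoter windows, 61.3% held at least 1 GGAAA, 9.4% held 3 or more and 7.8% held an AP-1 match, and no pair of motif matches overlapped in the windows shown. The downstream start of Rcan1 gives the short isoform that is known to be driven by calcineurin and NFAT. The gene-level FPKM sums both Rcan1 isoforms, and likewise the long and short forms of Nfatc1, so no isoform could be read on its own.

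In unstimulated CTL the level per exon length was highest for Ppp3cc (113 ± 0.932 FPKM, mean ± SD, n = 3 as for all groups), followed by Nfatc3 (43.0 ± 2.32), Ppp3ca (33.4 ± 2.08), Nfatc2 (30.6 ± 0.925), Ppp3cb (29.1 ± 0.295), Nfatc1 (20.97 ± 1.86), Nfat5 (7.44 ± 0.388) and Rcan1 (3.99 ± 0.187). Neighbours in this order did not overlap between cultures, though Ppp3ca, Nfatc2 and Ppp3cb followed closely. Unstimulated CTL thus held more Nfatc3 and Nfatc2 mRNA than Nfatc1, and Ppp3cc, the subunit best known from testis, was the main catalytic subunit mRNA. After TCR triggering the order was Ppp3cc (61.8 ± 4.02), Nfatc1 (40.03 ± 4.63), Nfat5 (25.9 ± 4.28), Nfatc3 (24.2 ± 1.94), Ppp3ca (21.9 ± 2.63), Ppp3cb (16.6 ± 1.65), Nfatc2 (10.8 ± 1.38) and Rcan1 (4.18 ± 0.0854). Nfat5, Nfatc3 and Ppp3ca overlapped between cultures there, and the other neighbours did not.

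**Figure D1:**
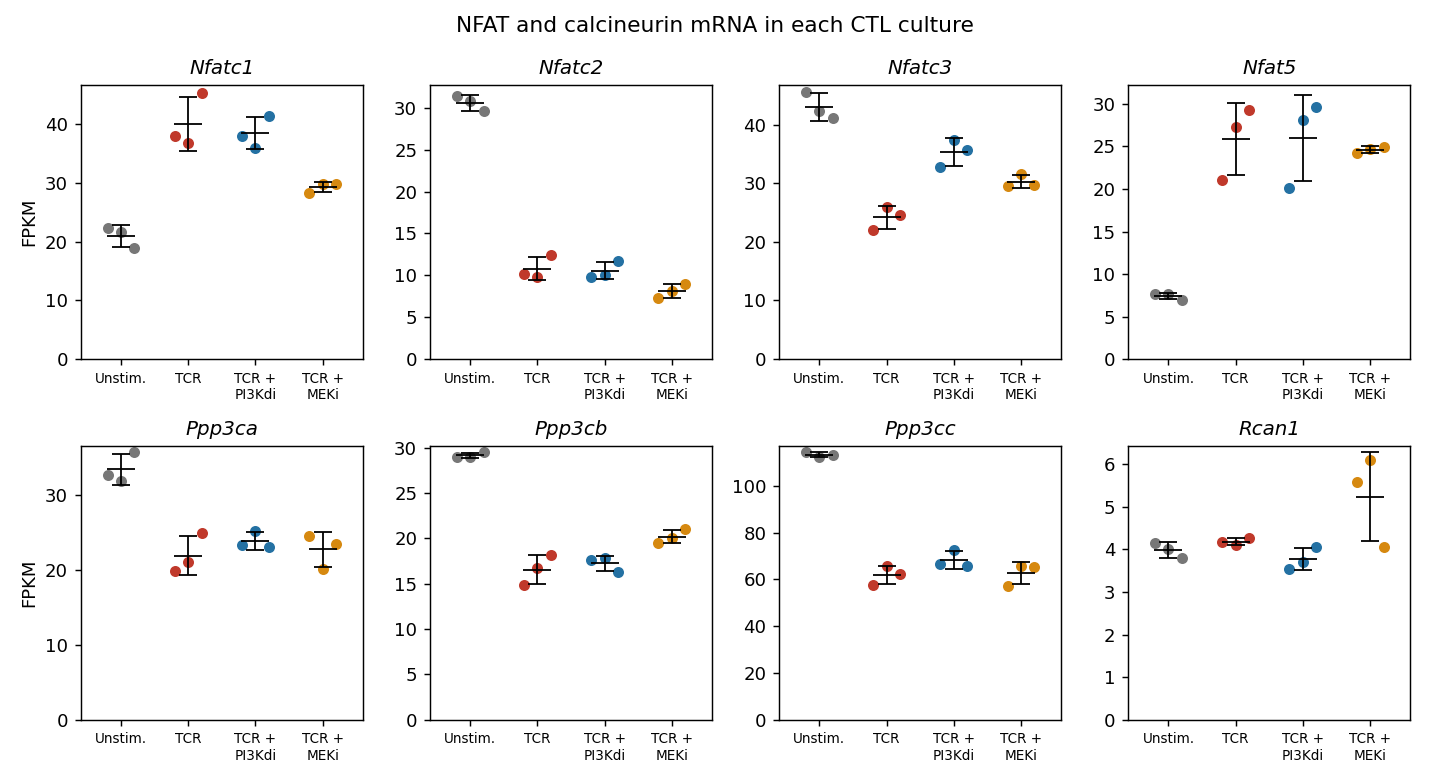
FPKM of each member (vertical axis, starting at 0, with its own range per panel) in the 4 groups; coloured points are the 3 cultures of a group, in replicate order from left to right, and black bars give the mean ± SD. Nfatc1 and Nfat5 sat higher and Nfatc2, Nfatc3 and the 3 Ppp3c genes lower in every TCR culture than in every unstimulated culture, and Rcan1 overlapped.

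TCR triggering moved the NFAT family in opposite directions. Nfat5 and Nfatc1 rose, and Nfatc2 and Nfatc3 fell. Changes were called at over 2-fold with an adjusted p under 0.05 (limma on log2(FPKM + 0.1), Benjamini-Hochberg over 11022 genes). By that rule 2 of 8 members were called, Nfat5 and Nfatc2, against 20% of all genes. By adjusted p alone 7 of 8 differed, 2 higher and 5 lower, against 68.6% of all genes, 33.6% higher and 34.9% lower, so that a member passing this test was near what any gene did.

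Nfat5 was at 7.69, 7.63 and 6.99 FPKM in unstimulated replicates 1, 2 and 3 and at 21.1, 27.3 and 29.3 in TCR replicates. Every TCR culture lay above every unstimulated one, with replicate 1 the lowest of the TCR cultures. The rise was 3.48-fold, or 1.77 on the log2 scale (95% interval 1.49 to 2.05, limma adjusted p = 1.48e-08), which ranked 466 from the top of 11022 genes.

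Nfatc1, the member known to drive its own transcription, was at 22.4, 21.7 and 18.9 FPKM before and 38.0, 36.8 and 45.3 after TCR triggering. The groups did not overlap. The rise of 1.91-fold (log2 0.93, 0.74 to 1.11, limma adjusted p = 1.69e-07) stopped short of the 2-fold limit.

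Nfatc2, which encodes NFAT1, the form long known in resting T cells, was at 31.4, 30.8 and 29.6 FPKM in unstimulated and 10.2, 9.82 and 12.4 in TCR cultures. Levels after TCR triggering were 0.353 of those before (log2 -1.501, -1.72 to -1.29, limma adjusted p = 4.67e-09), a fall that ranked 467 from the bottom. Nfatc3, encoding NFAT4, was at 45.6, 42.4 and 41.1 FPKM before and 22.1, 25.9 and 24.7 after, again without overlap. It fell to 0.563 of its unstimulated level (log2 -0.83, -0.98 to -0.68, limma adjusted p = 7.71e-08).

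The 3 catalytic subunits of calcineurin all fell, each by less than 2-fold. Ppp3cc was at 114, 112 and 113 FPKM in unstimulated and 57.6, 65.5 and 62.5 in TCR cultures (log2 -0.87, -1.01 to -0.74, limma adjusted p = 1.53e-08). Ppp3cb, the Aβ subunit, was at 29.0, 29.0 and 29.5 FPKM before and 14.8, 16.7 and 18.1 after (log2 -0.82, -0.97 to -0.66, limma adjusted p = 1.1e-07). Ppp3ca, the Aα subunit, was at 32.7, 31.8 and 35.8 FPKM before and 19.8, 21.1 and 24.9 after (log2 -0.61, -0.80 to -0.42, limma adjusted p = 2.6e-05). None of the 3 genes had a TCR culture within the unstimulated range, and the unstimulated cultures of Ppp3cc spread by a coefficient of variation of 0.823%.

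Rcan1, widely used as a readout of calcineurin activity, was at 4.16, 4.02 and 3.79 FPKM in unstimulated and 4.17, 4.10 and 4.27 in TCR cultures. The groups overlapped, and the difference was 0.07 on the log2 scale (-0.21 to 0.34, limma adjusted p = 0.665). The interval leaves room for a change in either direction. On the TPM scale (each culture rescaled to one FPKM sum) Rcan1 was lower after TCR triggering (log2 -0.34, limma adjusted p = 0.0402). The median of all genes on that scale was lower still, at -0.41.

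That scale matters here because the summed FPKM of all genes differed between groups, 470421 to 495945 in unstimulated and 620715 to 666922 in TCR cultures. Rescaling shifted the median log2 difference of all genes between TCR and unstimulated CTL from -0.01 to -0.41 and lowered the share of called genes that rose from 44.4% to 22.1%. On it 6 of 8 members passed 2-fold in place of 2: Nfatc2 (-1.91), Nfatc3 (-1.24), Ppp3cc (-1.29), Ppp3cb (-1.23) and Ppp3ca (-1.02) lower and Nfat5 (1.36) higher, while Nfatc1 kept its direction (0.52). Among all 11022 genes, 2923 were called on the TPM scale in place of 2202, so calls also rose outside the members. Quantile normalisation stayed near the deposited FPKM instead. It gave a median of -0.05, with 2137 genes called and 43.1% of these higher.

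Ratios between members do not depend on that scale. The Nfatc1 to Nfatc2 ratio of FPKM was 0.685 ± 0.0411 in unstimulated and 3.71 ± 0.0422 in TCR cultures, with cultures of the latter between 3.66 and 3.74. Of the summed FPKM of the 4 NFAT genes, Nfatc1 made up 20.5% ± 0.869 before and 39.7% ± 2.5 after, and Nfat5 7.29% ± 0.137 before and 25.6% ± 2.22 after. Over the same step Nfatc2 went from 30% ± 0.663 to 10.7% ± 0.738 and Nfatc3 from 42.2% ± 0.721 to 24.1% ± 1.92. Sums, unlike ratios and shares, do depend on the scale. The 4 genes summed to 102 ± 5.28 FPKM in unstimulated and 101 ± 10.2 in TCR cultures, with overlapping ranges, but on the TPM scale (a comparison added after the values were seen) to 213 ± 16.2 and 158 ± 20.2, with ranges of 195 to 226 and 137 to 177 that were apart. Ranges of all 4 shares were apart between unstimulated and TCR cultures, although 3 cultures against 3 cannot give an exact permutation p below 0.10 and no test was made on the shares.

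The calcineurin total fell with modest shifts in make-up. The 3 catalytic mRNAs summed to 176 ± 2.64 FPKM in unstimulated, 100 ± 7.11 in TCR, 109 ± 5.54 in TCR + PI3Kdi and 106 ± 4.21 in TCR + MEKi cultures. Ppp3cc made up 64.4% ± 0.859, 61.7% ± 2.19, 62.4% ± 0.478 and 59.3% ± 2.74 of these sums, and Ppp3cb 16.6% ± 0.132, 16.5% ± 0.611, 15.8% ± 0.553 and 19.1% ± 0.135. On the TPM scale, also added after the values were seen, the sum was 366 ± 5.8 in unstimulated and 157 ± 16.5 in TCR cultures, and the 194.5 ± 12.8 with PI3Kdi and 198 ± 6.13 with MEKi did not overlap with TCR. The Ppp3cc share in unstimulated cultures (63.44% to 64.96%) lay just above that in TCR cultures (59.22% to 63.42%), and the Ppp3cb share with MEKi (18.99% to 19.26%) lay above all other cultures.

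**Figure D2:**
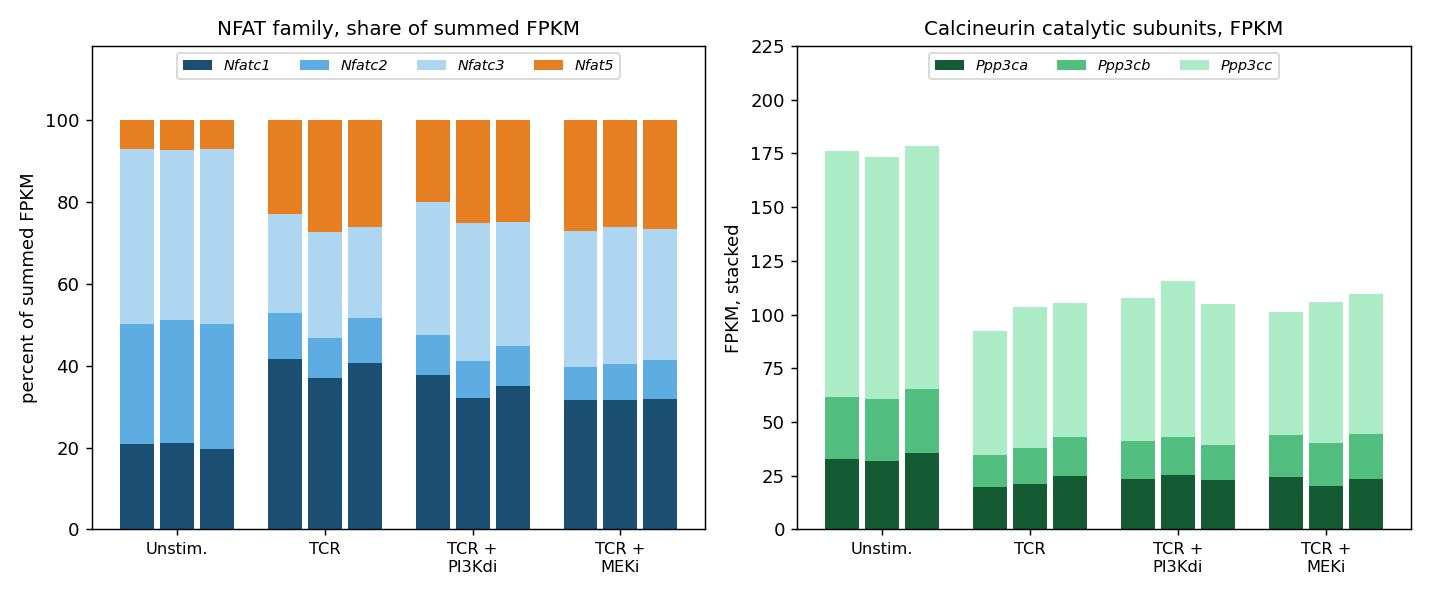
Each bar is 1 culture, in replicate order within its group. Left, the share of each NFAT gene in the summed FPKM of the 4 genes (percent); right, the FPKM of the 3 calcineurin catalytic subunits, stacked. Nfat5 and Nfatc1 took larger shares in the TCR cultures than in the unstimulated ones, and the calcineurin sum went from 176 to 100 FPKM with Ppp3cc the largest part throughout.

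PI3K p110δ inhibition changed 1 of the 8 members. No member passed 2-fold (0 of 8 against 1.88% of all genes), and 1 of 8 differed by adjusted p alone against 25.6% of all genes. That gene was Nfatc3, at 32.7, 37.5 and 35.7 FPKM with the inhibitor against 22.1, 25.9 and 24.7 with peptide alone. All 3 inhibitor cultures were above all 3 TCR cultures (log2 0.54, 0.39 to 0.70, limma adjusted p = 8.76e-05), and all were below the unstimulated cultures (log2 -0.29, -0.44 to -0.13, limma adjusted p = 0.00276). In other words the fall of Nfatc3 after TCR triggering was smaller with the inhibitor present.

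The other NFAT mRNAs differed little under PI3K p110δ inhibition. Nfatc1 was at 38.0, 35.9 and 41.4 FPKM (log2 against TCR -0.05, -0.24 to 0.13), and Nfatc2 at 9.83, 10.1 and 11.7 (log2 -0.03, -0.25 to 0.18). Nfat5 was at 20.2, 28.1 and 29.6 FPKM (log2 -0.0025, -0.28 to 0.28), with replicate 1 the lowest as in the TCR group. The limma adjusted p values of these 3 genes were 0.682, 0.851 and 0.992. Ppp3ca (log2 0.13, -0.06 to 0.32), Ppp3cb (0.06, -0.09 to 0.22), Ppp3cc (0.14, 0.01 to 0.28) and Rcan1 (-0.15, -0.42 to 0.13) had limma adjusted p values of 0.32, 0.572, 0.119 and 0.44. On the TPM scale, where the median of all genes shifted to 0.19 and the share of called genes that rose went from 26.6% to 52.7%, Ppp3ca (0.31, adjusted p = 0.0223), Ppp3cb (0.24, 0.0315) and Ppp3cc (0.33, 0.00334) were higher with the inhibitor, and Ppp3cc also under quantile normalisation (0.23, 0.0236).

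MEK inhibition moved 4 of 8 members by adjusted p, against 37.1% of all genes, and 0 of 8 past 2-fold, against 3.49%. Nfatc1 was at 28.2, 29.8 and 29.7 FPKM, below all TCR cultures and above all unstimulated ones (log2 against TCR -0.45, -0.63 to -0.26, limma adjusted p = 0.000985). Nfatc2 was at 7.26, 8.16 and 8.94 FPKM, below its already low TCR range (log2 -0.40, -0.62 to -0.19, limma adjusted p = 0.00598). For these 2 genes the difference from TCR CTL did not pass on the TPM scale (log2 -0.18 with adjusted p = 0.112, and -0.14 with adjusted p = 0.273), where the median of all genes shifted to 0.26 and the share of called genes that rose went from 28.1% to 61.5%.

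Nfatc3 and Ppp3cb were higher with the MEK inhibitor than with peptide alone. Nfatc3 was at 29.6, 31.6 and 29.6 FPKM (log2 0.32, 0.17 to 0.48, limma adjusted p = 0.00257; 0.59 on the TPM scale). Ppp3cb was at 19.5, 20.1 and 21 FPKM (log2 0.29, 0.13 to 0.44, limma adjusted p = 0.00612; 0.55 on the TPM scale). Neither gene had a culture in common range with the TCR group, and both stayed below the unstimulated range.

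The remaining members did not pass under MEK inhibition. Nfat5 was at 24.3, 24.7 and 25.0 FPKM, inside the TCR range (log2 -0.06, -0.34 to 0.22, limma adjusted p = 0.763). Ppp3ca was at 24.6, 20.2 and 23.5 FPKM (log2 0.05, -0.14 to 0.25) and Ppp3cc at 57.2, 65.6 and 65.2 (log2 0.02, -0.12 to 0.16), with limma adjusted p values of 0.669 and 0.853. On the TPM scale both were higher than in TCR CTL (0.32 with limma adjusted p = 0.0135, and 0.28 with limma adjusted p = 0.00512). These values were close to the median of all genes on that scale, 0.26. Rcan1 was at 5.57, 6.09 and 4.06 FPKM, 2 cultures above and 1 below the TCR range (log2 0.30, 0.02 to 0.58, limma adjusted p = 0.0849). The outcome of this test depended on MEKi replicate 3, without which the difference was 0.47 with an adjusted p of 0.00625, and on the TPM scale it was 0.56 with an adjusted p of 0.00373.

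The effects of the 2 inhibitors share the TCR cultures, so they were compared directly, TCR + MEKi against TCR + PI3Kdi. Here 5 of 8 members differed by adjusted p, against 28.9% of all genes, and 0 of 8 passed 2-fold, against 3.09%. Nfatc1 was lower with MEKi (log2 -0.39, -0.57 to -0.21, limma adjusted p = 0.0031), as in each fit with 1 culture left out. The other 4 calls were fragile.

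Nfatc2 was lower with MEKi than with PI3Kdi (log2 -0.37, -0.59 to -0.16, limma adjusted p = 0.0116), but not without PI3Kdi replicate 3 (-0.30, adjusted p = 0.0585), without MEKi replicate 1 (-0.30, 0.058) or on the TPM scale (-0.29, 0.0546). Nfatc3 was lower with MEKi (log2 -0.22, -0.37 to -0.07, limma adjusted p = 0.0313), with values of -0.18 (0.123) without PI3Kdi replicate 2, -0.21 (0.081) without PI3Kdi replicate 3, -0.20 (0.0906) without MEKi replicate 1, -0.20 (0.097) without MEKi replicate 3, -0.14 (0.262) on the TPM scale and -0.22 (0.0597) without the intensity trend in limma. Ppp3cb was higher with MEKi (log2 0.23, 0.07 to 0.38, limma adjusted p = 0.028), with 0.19 (0.106) without PI3Kdi replicate 3, 0.23 (0.062) without MEKi replicate 2 and 0.20 (0.104) without MEKi replicate 3. Rcan1 was higher with MEKi (log2 0.45, 0.17 to 0.72, limma adjusted p = 0.0181) although the groups overlapped. Its value was 0.40 (0.0555) without PI3Kdi replicate 1, 0.43 (0.0505) without PI3Kdi replicate 2, 0.39 (0.0699) without MEKi replicate 1 and 0.33 (0.0927) without MEKi replicate 2. Nfat5 (log2 -0.06, -0.34 to 0.23), Ppp3ca (-0.07, -0.27 to 0.12) and Ppp3cc (-0.13, -0.26 to 0.01) did not pass.

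**Figure D3:**
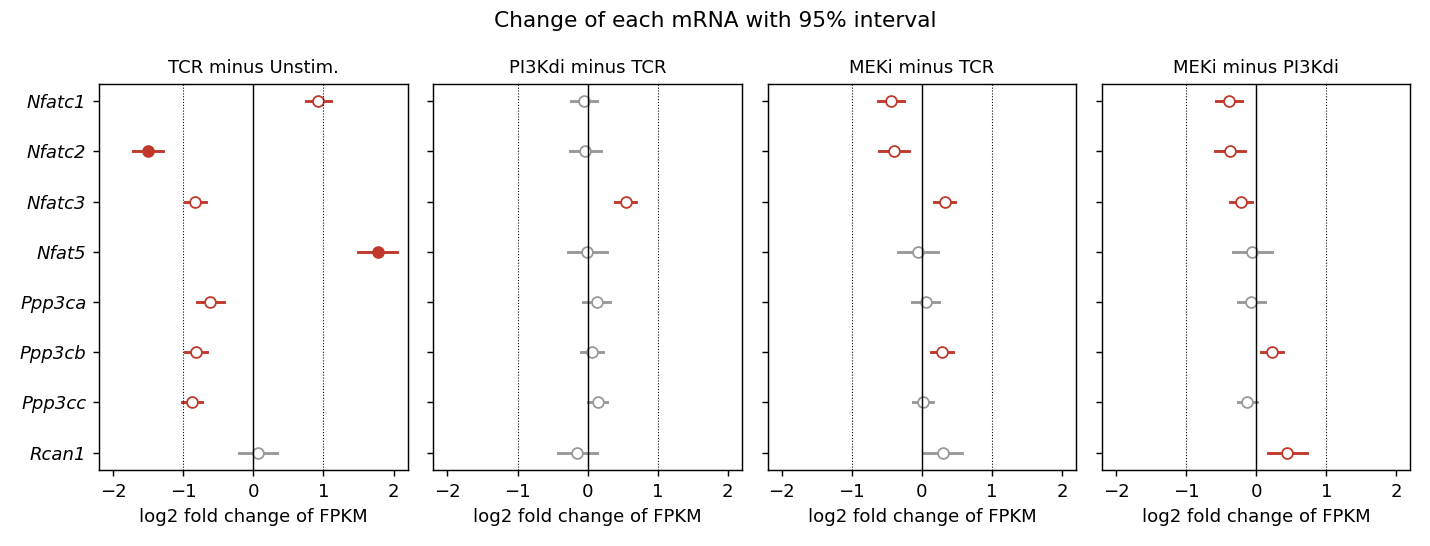
Log2 fold change of FPKM (horizontal axis) with its 95% limma interval for each member in 4 comparisons; red marks an adjusted p under 0.05, filled circles a change also over 2-fold, and dotted lines 2-fold. Filled circles appear for Nfatc2 and Nfat5 after TCR triggering, and no member crosses a dotted line in the comparisons with an inhibitor.

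Both inhibitor groups still differed from unstimulated CTL in most members, though mostly by less than 2-fold. With PI3Kdi 2 of 8 members were called against 14.6% of all genes, and 7 of 8 differed by adjusted p against 62.5%. With MEKi 2 of 8 were called against 13.4%, and 8 of 8 differed by adjusted p against 59.6%. The called members were Nfat5 (log2 1.77 with PI3Kdi and 1.72 with MEKi) and Nfatc2 (-1.53 and -1.91) in each case. Nfatc1 stood at 0.87 above unstimulated CTL on the log2 scale with PI3Kdi and 0.48 with MEKi, and Ppp3cc at -0.73 and -0.86. Nfatc3 was nearer its unstimulated level with PI3Kdi (-0.29) than with MEKi (-0.50). Rcan1 did not pass with PI3Kdi (-0.08, limma adjusted p = 0.61).

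Rcan1 made the 8th of these with MEKi (log2 0.37, 0.09 to 0.64, limma adjusted p = 0.0248), but the groups overlapped. It did not pass without unstimulated replicate 2 (0.37, 0.0514) or 3 (0.33, 0.0755), without MEKi replicate 1 (0.31, 0.0896) or 2 (0.25, 0.132), on the TPM scale (0.22, 0.193), or with only those groups in the fit (0.37, 0.0527).

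The Nfatc1 to Nfatc2 ratio stayed near its TCR value with either inhibitor, at 3.66 ± 0.186 with PI3Kdi and 3.62 ± 0.282 with MEKi. The Nfatc1 to Nfatc3 ratio did not. It was 0.487 ± 0.0266 in unstimulated, 1.66 ± 0.215 in TCR, 1.09 ± 0.117 in TCR + PI3Kdi and 0.966 ± 0.0325 in TCR + MEKi cultures, and neither inhibitor group overlapped the TCR group, where the lowest culture was at 1.42.

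The genes around these members were read from 5 lists. Of 8 measured calcineurin partners and regulators, 2 were higher and 4 lower by limma adjusted p after TCR triggering, against 68.6% of all genes in either direction, and none passed 2-fold (median log2 -0.11, all genes -0.01). Cabin1, for an inhibitor of calcineurin, was higher (log2 0.22, limma adjusted p = 0.0169), but not without unstimulated replicate 3 (0.16, adjusted p = 0.0853), and was at -0.19 on the TPM scale. Ppp3r1, the regulatory subunit that pairs with every catalytic subunit, was at 47.2 ± 1.8 FPKM before and 47.5 ± 3.4 after (log2 0.01, limma adjusted p = 0.93; -0.41 on the TPM scale). Rcan3, a relative of Rcan1, fell from 6.28 ± 0.19 to 3.57 ± 0.41 FPKM (log2 -0.80, limma adjusted p = 6.2e-06; -1.21 on the TPM scale, past 2-fold) and was at 5.34 ± 0.39 with PI3Kdi and 5.44 ± 0.36 with MEKi, higher than in TCR CTL by 0.57 and 0.60 on the log2 scale (limma adjusted p = 0.001 and 0.00044).

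Of 14 measured genes of calcium entry and clearance, 3 were higher and 4 lower after TCR triggering by limma adjusted p, and 1 in each direction passed 2-fold (median log2 -0.05). The 7 of 14 and 2 of 14 compare with 68.6% and 20% of all genes. Orai1, the pore of the store-operated calcium channel, rose from 17.0 ± 2.1 to 56.2 ± 4.8 FPKM (log2 1.72, limma adjusted p = 3.2e-10), and was at 41.9 ± 4.2 with PI3Kdi (log2 against TCR -0.42, limma adjusted p = 0.0034; -0.24 on the TPM scale) and 57.3 ± 2.2 with MEKi. Itpr3, an IP3 receptor that releases calcium from the endoplasmic reticulum, fell from 18.8 ± 2.0 to 8.57 ± 0.59 FPKM (log2 -1.12, limma adjusted p = 3.8e-08). Atp2a3, a calcium pump of the endoplasmic reticulum, fell from 63.0 ± 5.5 to 33.1 ± 3.8 FPKM (log2 -0.93, limma adjusted p = 8.43e-07), and passed 2-fold on the TPM scale (-1.34), under quantile normalisation (-1.01) and without TCR replicate 3 (-1.01). Plcg1, the phospholipase that makes IP3, was one of the 3 higher after TCR triggering (log2 0.20, limma adjusted p = 0.0463), a call lost under quantile normalisation (0.13) and without unstimulated replicate 2 or 3 or TCR replicate 1 or 3 (0.14 to 0.19), and of opposite sign on the TPM scale (-0.22). It was at 31.7 ± 2.6 FPKM in TCR and 17.1 ± 1.3 in TCR + MEKi cultures (log2 -0.89, limma adjusted p = 1.4e-06).

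Of 12 measured NFAT kinases and nuclear transport genes, which act to return NFAT to the cytoplasm or move it, 3 were higher and 5 lower by limma adjusted p after TCR triggering and none passed 2-fold (median log2 -0.06). The 8 of 12 compare with 68.6% of all genes. Nfatc2ip, whose product binds NFATc2, fell from 7.39 ± 0.098 to 4.21 ± 0.42 FPKM (log2 -0.80, limma adjusted p = 5.9e-06). On the TPM scale Nfatc2ip (-1.21) and Homer3 (-1.18), for a scaffold protein that binds NFAT, passed 2-fold. The 3 that were higher were the casein kinase 1 genes Csnk1a1, Csnk1d and Csnk1e, at log2 0.28, 0.48 and 0.50, and on the TPM scale these were -0.14, 0.07 and 0.10.

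Of 6 measured osmotic target genes of NFAT5, 4 were higher and none lower by limma adjusted p after TCR triggering, and 2 passed 2-fold (median log2 0.56). Over all genes 33.6% were higher and 8.87% were called higher. Of the 4, Slc38a2 had a log2 difference of 0.16 that was -0.25 on the TPM scale, and Hspa4l one of 0.96 that passed 2-fold under quantile normalisation (1.03), without unstimulated replicate 3 (1.05) and without TCR replicate 1 (1.06). Slc5a3, the myo-inositol transporter, rose from 0.913 ± 0.046 to 5.24 ± 0.55 FPKM (log2 2.39, limma adjusted p = 6e-11), with 6.74 ± 0.18 FPKM under PI3Kdi and 3.73 ± 0.27 under MEKi (log2 between the inhibitors -0.84, limma adjusted p = 4.7e-05). Hspa1b, encoding an HSP70, was at 0.137 ± 0.076 before and 1 ± 0.22 after (log2 2.26, limma adjusted p = 3.4e-06; 0.81 with a pseudocount of 1). Slc6a6, the taurine transporter, was at 43.3 ± 3.5 and 48.7 ± 4.4 FPKM (log2 0.17, limma adjusted p = 0.084). Against TCR CTL, 2 of 6 were higher and 1 lower by adjusted p with PI3Kdi, and 3 higher and 2 lower with MEKi. Over all genes 25.6% and 37.1% differed in either direction. Only Hspa1b was called, lower with MEKi (log2 -1.07, limma adjusted p = 0.00713). That call was lost with a pseudocount of 1 (-0.48) and on the TPM scale (-0.84), among other settings.

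Of 19 measured NFAT target genes, 17 were called higher and none lower after TCR triggering (median log2 5.05), against 8.87% of all genes called higher. Of the 17, Tnfrsf9 (log2 1.35), for a costimulatory receptor, was under 2-fold on the TPM scale (0.94) and under quantile normalisation (0.93). Csf2, for GM-CSF, went from 3.62 ± 0.40 to 3205 ± 96.8 FPKM. With PI3Kdi 6 of 19 were called lower than in TCR CTL, against 1.38% of all genes, and with MEKi 9 of 19, against 2.51%, and none was called higher. The largest falls were of the cytokine genes Il2, Csf2 and Tnf. Their log2 differences were -3.05, -2.67 and -2.61 with PI3Kdi and -3.85, -3.24 and -3.05 with MEKi. The call of Il3 with MEKi (-1.70) was lost with a pseudocount of 0.01 (limma adjusted p = 0.0733). By adjusted p alone 2 of 19 were higher with each inhibitor, and 12 lower with PI3Kdi and 14 with MEKi. Some of the lower ones were fragile. With PI3Kdi, Egr3 (log2 -0.71) and Nr4a3 (-0.38) each failed adjusted p in 7 of 14 alternative settings. With MEKi, Tnfrsf9 (-0.17) failed in 4 and Nr4a3 (-0.44) in 3. Under quantile normalisation Ifng was at 0 with either inhibitor. Over all genes 12.7% were higher and 12.8% lower with PI3Kdi, and 18.9% higher and 18.2% lower with MEKi. Ctla4, encoding an inhibitory receptor, was at 184 ± 29 FPKM in TCR and 349 ± 60 in TCR + PI3Kdi cultures (log2 0.92, limma adjusted p = 0.00125), and passed 2-fold on the TPM scale (1.10), under quantile normalisation (1.03), without TCR replicate 1 (1.04) and without PI3Kdi replicate 3 (1.01). Cblb, encoding a ubiquitin ligase, was at 82.5 ± 4.1 and 102 ± 3 FPKM (log2 0.31, limma adjusted p = 0.00176). With MEKi the same genes were higher by 0.46 and 0.20 on the log2 scale (limma adjusted p = 0.0467 and 0.0182), calls lost without TCR replicate 1 for Cblb (0.16) and without TCR replicate 3 for Ctla4 (0.36), among other cultures. Pdcd1, encoding PD-1, was at 210 ± 15 FPKM in TCR, 191 ± 11 in TCR + PI3Kdi and 205 ± 7.1 in TCR + MEKi cultures (limma adjusted p = 0.49 and 0.86). These lists were chosen with results of these data known, so their direction is a description.

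**Figure D4:**
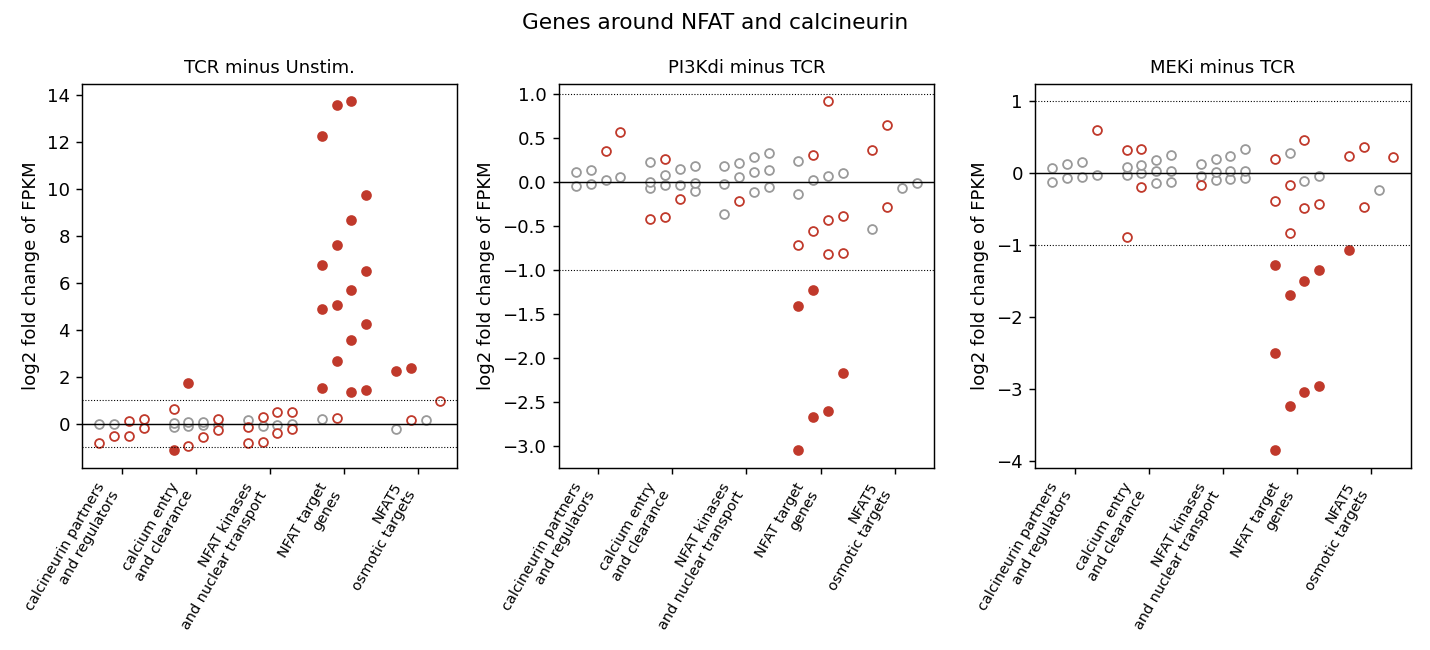
Log2 fold change of FPKM (vertical axis, with its own range per panel) of every measured gene of the 5 lists, 1 circle per gene; red marks an adjusted p under 0.05, filled circles a change also over 2-fold, and dotted lines 2-fold. The 17 filled circles of the NFAT target genes after TCR triggering stand above 2-fold, and few genes of the first 3 lists leave the band between the dotted lines.

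The genes most like each member were found by Pearson correlation of log2(FPKM + 0.1) over the 12 cultures among 9898 genes with a mean of at least 1 FPKM. The cultures share 4 groups, so these values mainly rank genes with the same steps between groups. Nfat5 was most like Hivep1 (r = 0.994), Plcxd2 (0.988) and Runx2 (0.988), and Nfatc1 most like Zfp36l1 (0.974), Fosb (0.971) and Cxxc5 (0.969). Nfatc2 was most like Eya2 (0.990), Padi2 (0.990) and Slc20a1 (0.988), and Nfatc3 most like Whsc1l1 (0.989), Ablim1 (0.987) and Cdk19 (0.987). Ppp3cc was most like Usp3 (0.995), Ppp3cb like Lmnb1 (0.986), Ppp3ca like Rcbtb1 (0.968) and Rcan1 like Opn3 (0.905). Among the members, Nfatc2 and Ppp3cc ran most closely together (0.954) and Nfat5 and Ppp3cc most opposed (-0.931), while Rcan1 stayed between -0.389 and 0.238 with every other member.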

How the data were processed

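Paired-end mRNA sequencing was analysed in 12 cultures, 3 in each of 4 groups taken from the labels. Per the submitters' processing notes and the study's methods, the authors aligned reads with STAR 2.4.2a to mm10, counted them per RefSeq gene with Subread 1.5.0, removed low genes, scaled by TMM in edgeR and deposited FPKM on the summed exon length; whether counting used strand is not given in the sources used here. Columns that could not be assigned to a sample numbered 0. The deposited FPKM were transformed to log2(FPKM + 0.1) and fitted with limma 3.58.1 (R 4.3.3; lmFit, contrasts.fit, eBayes with trend) with 1 mean per group over all 12 samples, and p values were adjusted by Benjamini-Hochberg over 11022 genes in each of 6 comparisons. Fold changes are on the log2(FPKM + 0.1) scale, which understates changes of low genes. Called means an adjusted p under 0.05 and over 2-fold, thresholds taken from the study. The study fitted counts with limma-voom; these were not used here. All 8 members are described, the genes most like them were named by correlation, and the other genes named were picked from the lists after their values were seen. The members and lists were chosen with earlier results of these data known.

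Depth was estimated by searching 6000000 to 15000000 reads for the value that best turned low FPKM (32 to 57 values a culture) into whole reads with GENCODE M21 exon lengths. Of those values, 51.0% to 72.0% came within 0.15 of a whole read, where 30% is expected by chance at a depth fixed in advance. The depth was instead picked to fit these same values, so 30% is too low a reference. Reads were not recovered, and no count test was run. Intervals of counting error are approximate. The fit was tested on simulated data with known changes.

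Replicate numbers come from the labels. The study's methods derive 3 replicates from 3 mice, and that a number marks the same mouse in every group is not stated. Group means were removed and cultures with the same number were correlated over 9899 genes. The values were 0.239 to 0.451 (TCR + PI3Kdi with TCR), 0.122 to 0.182 (TCR + MEKi with TCR) and 0.137 to 0.149 (TCR + MEKi with TCR + PI3Kdi). With Unstimulated they were 0.117 to 0.147 (TCR + MEKi), 0.0037 to 0.153 (TCR) and -0.0615 to 0.114 (TCR + PI3Kdi). Cultures with unlike numbers were not correlated. With group means removed, they must covary negatively on average wherever all like-numbered pairs covary positively. In those comparisons like-numbered cultures thus varied together more than unlike ones. What they shared was not tested, and these values cannot show whether a number marks the same mouse. Alternatives were a pseudocount of 0.01 or 1, leaving out genes under a mean of 1 FPKM, the TPM scale, quantile normalisation, a replicate block, only the groups compared, no intensity trend and leaving out each culture. Python 3.11.15 with pandas 2.3.3 and matplotlib 3.10.9 was used for annotation and plots.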

Additional observations from a re-analysis of the deposited data

How the results depend on the processing

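Most of the member results kept their direction and their side of the threshold under the alternatives; calls that were lost or gained are given beside the results, reversals and moved counts are given here, and the cause was not tested. On the TPM scale, Rcan1 reversed in TCR against Unstimulated (log2 -0.34), and differences that had not passed reversed in TCR + PI3Kdi against TCR for Nfatc1 (0.13), Nfatc2 (0.15), Nfat5 (0.18) and Rcan1 (0.032), in TCR + MEKi against TCR for Nfat5 (0.20), and in TCR + MEKi against TCR + PI3Kdi for Nfat5 (0.024) and Ppp3ca (0.0052). Quantile normalisation reversed Nfatc1 (0.0169) and Nfat5 (0.0236) in TCR + PI3Kdi against TCR. Leaving out 1 culture gave ranges through 0 in TCR + PI3Kdi against TCR for Nfatc1 (-0.1125 to 0.0381), Nfatc2 (-0.1075 to 0.0704), Nfat5 (-0.1431 to 0.1691) and Ppp3cb (-0.015 to 0.1286), in TCR + MEKi against TCR for Nfat5 (-0.1983 to 0.0374), Ppp3ca (-0.0143 to 0.149) and Ppp3cc (-0.0326 to 0.0821), and in TCR + MEKi against TCR + PI3Kdi for Nfat5 (-0.2268 to 0.0491) and Ppp3ca (-0.1318 to 0.0106). The number of members called in TCR against Unstimulated was 6 on the TPM scale in place of 2, where 2923 of all 11022 genes were called in place of 2202. A pseudocount of 1 lowered the genes called among all 11022 from 2202 to 1405 (TCR against Unstimulated), 207 to 90 (TCR + PI3Kdi against TCR), 385 to 201 (TCR + MEKi against TCR), 341 to 150 (TCR + MEKi against TCR + PI3Kdi), 1608 to 979 (TCR + PI3Kdi against Unstimulated) and 1478 to 873 (TCR + MEKi against Unstimulated). With the replicate block, TCR against Unstimulated called 2206 genes and 2 members, and the block changed no member's call in any comparison. With 3 cultures a group, intervals of the members' log2 differences were about 0.14 to 0.28 to either side.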
